A study of Homo sapiens with 6 samples.

Results

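Simple pentamer repeats that lie close to human satellite II (HSATII) were followed in RNA and DNA of SW620 cells. Members were all loci of the deposited satellite table annotated as (CATTC)n or (GAATG)n and lying within 100 kb, edge to edge on the same chromosome or contig, of a locus annotated as HSATII. This rule used positions and annotations and no measured value. It found 1682 of the 9566 satellite loci of the table, or 533695 bp of repeat, made up of 508 (CATTC)n and 1174 (GAATG)n loci. The other 776 pentamer loci, which lie farther away or on sequences with no HSATII, and the 399 HSATII loci served for comparison.

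SW620 is a human colon cancer line that was grown out of a metastasis in a lymph node. According to the labels, cells were taken from 2D culture in RPMI1640 medium with 10% FBS before xenografting, from a subcutaneous tumour in a Nu/Nu mouse, and from the same kind of culture after the xenograft. RNA (TRIzol purification) and DNA (DNeasy isolation) were each sequenced at all 3 stages, which follows satellites as the cells moved from culture to tumour and back, by Helicos single-molecule sequencing, which reads molecules without PCR. Each of the 6 groups is 1 library of 1 cell line, and Nu/Nu mice are athymic animals that lack mature T cells. The xenograft libraries may also hold mouse reads, since the labels name no step that removed host cells. The table holds satellite loci only, so the colon origin of the cells and the share of host cells could not be checked with marker genes.

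Pericentromeric satellites are tandem repeats of constitutive heterochromatin beside the centromeres, and are largely silent in healthy adult tissue. HSATII and HSATIII, the classical human satellites, are both built from diverged copies of a CATTC unit. RepeatMasker labels the less diverged stretches of such arrays as simple repeats, (CATTC)n or (GAATG)n by the strand on which the unit reads. HSATII RNA is known to accumulate in epithelial cancers, and HSATIII RNA is known for its transcription after heat shock. The repeat unit is given because it joins the members to their neighbours: it is written 5′ to 3′ as CATTC, with all 5 bases in capitals as the table spells them, and its reverse complement names the other family. Every member is listed on the plus strand, so the annotation name carries the orientation of the array. The sequence of the single loci was not analysed here.

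Members shared more than the unit. They had a median length of 185 bp (quartiles 176 and 365 bp, range 24 to 2626 bp), and 650 of them (38.6%) were 160 to 200 bp long, against 238 (30.7%) of the other pentamer loci. They lay in 17 blocks on 9 chromosomes or contigs. Chromosome Y held 618 members, chromosome 10 held 399, the unplaced contig Un_gl000216 held 243 and chromosome 21 held 210, and the rest were spread over chromosomes 2 (93), 20 (76), 16 (18), 7 (15) and 17 (10). Of the 508 (CATTC)n members, 394 had a nearest HSATII row on the plus strand and 114 on the minus strand. Of the 1174 (GAATG)n members, 110 had it on the plus strand and 1064 on the minus strand.

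The HSATII that brought members into the set was often a small remnant. The 1682 members had only 50 distinct nearest HSATII rows among them, and the median length of the nearest row, counted over members, was 65 bp, against 471 bp over all HSATII rows. The median distance was 9526 bp. At the limit itself hits were few on both sides, too few to tell whether the sides differed. The last members inside, (GAATG)n at chr10:38775221-38775574 (hg19 throughout, 99869 bp away) and chr10:38775586-38775873 (99570 bp), held 8 and 5 xenograft DNA hits and 2 xenograft RNA hits each. The first loci outside, (GAATG)n at chr10:38775009-38775165 (100278 bp) and chr10:38774554-38774957 (100486 bp), held 5 and 4 xenograft DNA hits and 1 and 0 xenograft RNA hits.

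A hit is a read counted at a locus, recovered from the deposited RPM (hits per 1000000 reads in the library). The library totals were 157326 to 1077925 reads in RNA and 3080853 to 4355426 reads in DNA, so a single hit was worth 6.36, 0.928 and 4.17 RPM in RNA before xenografting, in the xenograft and after it, against 0.230, 0.309 and 0.325 RPM in DNA. A count of 0 at a locus allows, with 3 hits as the limit, up to 19.1, 2.78 and 12.5 RPM in RNA and 0.689, 0.928 and 0.974 RPM in DNA. Members took 0.631%, 4.26% and 0.224% of all satellite hits in RNA and 1.84%, 5.22% and 4.28% in DNA over the same stages. Members share sequence, and a read with several matches may count at each of them. Of the 1312 members with 5 or more hits over the 6 libraries, 640 (48.8%) had the same values in all libraries as another pentamer locus. This held for 79 of 568 (13.9%) with 20 or more hits and for 3 of 164 (1.83%) with 50 or more. Low counts can also match by coincidence, so these shares do not measure shared reads. Intervals are 95% exact intervals for counting error only. They treat hits as independent reads and hold no spread between cultures or animals, so no difference could be set against replicate error.

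RNA of the members was at the edge of detection in both cultures and abundant in the tumour. Summed over the 1682 members it was at 31.8 RPM before xenografting (5 hits, exact Poisson interval 10.3 to 74.2 RPM), 3108 RPM in the xenograft (3350 hits, 3003 to 3215 RPM) and 29.2 RPM after it (7 hits, 11.7 to 60.1 RPM). At the xenograft level, the depth of the culture libraries would have given 489 hits before and 746 hits after, where 5 and 7 were seen. The xenograft was 97.8-fold above the culture before (41.9 to 301), and the culture after was 107-fold below the xenograft (51.7 to 265). The culture after and the culture before were at a ratio of 0.918 (0.251 to 3.67), too wide to tell whether they differed. Without chromosome 10 the xenograft was 64.7-fold above the culture before (27.7 to 199.5). Scaling by TMM over satellite loci shifted RNA ratios by -0.17 on the log2 scale for xenograft over culture before and by -0.67 for culture after over xenograft, and put the members at 86.7-fold (37.1 to 267) and at a ratio of 0.00588 (0.00236 to 0.0121). In bulk libraries, fewer cells carrying a transcript and less of it per cell cannot be told apart.

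DNA of the members was high in the xenograft and stayed high afterwards. It was at 157 RPM before xenografting (683 hits, 145 to 169 RPM), 5156 RPM in the xenograft (16660 hits, 5078 to 5235 RPM) and 4444 RPM after it (13691 hits, 4370 to 4519 RPM). The xenograft was 32.9-fold above the culture before (30.5 to 35.5), the culture after was at 0.862 of the xenograft (0.843 to 0.882), and the culture after was 28.3-fold above the culture before (26.2 to 30.6). Satellite DNA hits as a whole were also more numerous, at 9.88% of reads in the xenograft and 10.4% after it, against 0.854% before. Scaled to the satellite loci themselves by TMM, which shifted every DNA ratio of xenograft over culture before by -3.09 on the log2 scale, the members remained 3.86-fold above the culture before (3.57 to 4.17), and with size factors 7.16-fold (6.63 to 7.74).

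**Figure D1:**
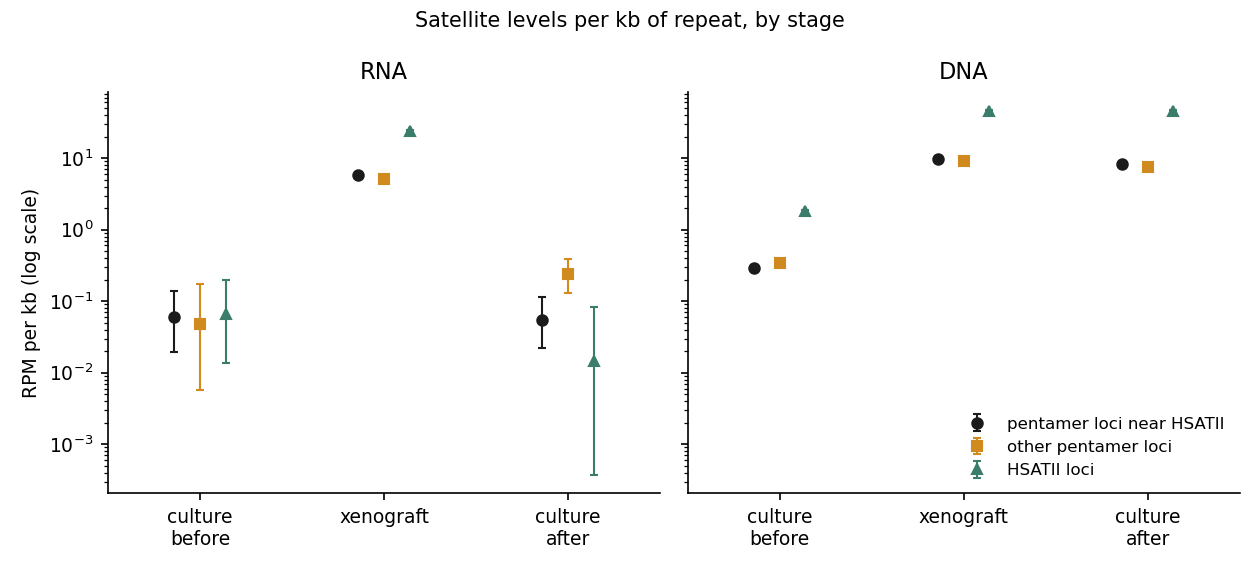
RPM per kb of repeat (log axis) in RNA (left) and DNA (right) at the 3 stages, for pentamer loci near HSATII, other pentamer loci and HSATII loci, 1 library per point, with 95% exact Poisson intervals. Members stood at 0.0595, 5.82 and 0.0546 RPM per kb in RNA, so only the xenograft was high, and at 0.294, 9.66 and 8.33 RPM per kb in DNA, where the culture after stayed near the xenograft.

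RNA did not follow DNA between the stages. RNA RPM over DNA RPM of the members was 0.203 before xenografting (0.0656 to 0.475), 0.603 in the xenograft (0.581 to 0.626) and 0.00656 after it (0.00264 to 0.0135). In the xenograft it was 0.556 for other pentamer loci (0.525 to 0.588) and 0.529 for HSATII (0.516 to 0.542). After the xenograft it was 0.0312 for other pentamer loci (0.0174 to 0.0515) and 0.000317 for HSATII (8.02e-06 to 0.00177), with the members between them.

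The xenograft hits were spread over many loci. RNA hits fell on 1145 of the 1682 members in the xenograft (68.1%), against 5 before it and 7 after it, each of those a single hit. In the culture before, 3 of these loci lay on chromosome Y, 1 on chromosome 16 and 1 on Un_gl000216. In the culture after, 3 lay on chromosome 21 and 1 each on chromosomes 2, 10 and Y and on Un_gl000216. No member had RNA in both cultures, and all 12 members with RNA in a culture also had it in the xenograft.

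DNA hits fell on 439 members before xenografting (26.1%), 1573 in the xenograft (93.5%) and 1546 after it (91.9%), and 34 members had no hit in any library. In the xenograft 221 members together held 50% or more of the RNA hits, and 251 held as much of the DNA hits. The single highest locus held 1.10% of the RNA hits. Only 9 members had less DNA RPM in the xenograft than in the earlier culture. Whether a locus had a hit went with its length: RNA hits in the xenograft were found at 91.0% of the 391 members longer than 400 bp (356 loci), at 58.6% of the 650 of 160 to 200 bp and at 32.4% of the 219 shorter ones.

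Single members were mostly too low for a comparison of their own. In RNA of the xenograft or the culture before, only 3 members reached 20 RPM, and all 3 were past 2-fold up in the tumour on the log2(RPM + 5) scale, which understates the difference of low loci. Of all 377 satellite loci that reached 20 RPM, 89.1% were. The same 3 were at least 2-fold lower in the culture after than in the xenograft, against 69.2% of 429 satellite loci, and no member reached 20 RPM in RNA of either culture. In DNA, 11 of 11 members were past 2-fold up in the tumour against the culture before (median log2 difference 2.35), against 89.6% of 444 loci with a median of 2.76. For the culture after against the culture before it was 5 of 5 (median 2.47), against 92.2% of 459 loci with a median of 2.75. None of 11 members passed 2-fold in either direction between the culture after and the xenograft (median -0.25), where 0% of 473 loci were lower (median 0.08). These members passed the minimum through the xenograft or the culture after alone, so their direction was set by that choice.

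A test on the recovered hits, with the exact conditional binomial test and Benjamini-Hochberg adjustment over all satellite loci with a hit, compares these libraries and not the conditions. In RNA it called 0 of 1145 members higher in the tumour than in the earlier culture, against 3.69% of all loci, and 2 had an unadjusted p under 0.05. It called 1 of 1145 lower in the culture after than in the xenograft, against 4.85% of all loci (4 unadjusted), and 0 of 12 higher in the culture after than before, against 4.32% (0 unadjusted). The counts of 0 in RNA were fixed by depth and are no result about the members. Even 37 xenograft hits against 0 before, the most of any member, were not called. The 12 members held 1 hit in 1 culture and 0 in the other, which cannot be called. In DNA the test called 931 of 1582 members higher in the xenograft than before and 815 of 1555 higher after than before, shares of all loci being 43.8% and 42.1%. It called 0 of 1638 lower after than in the xenograft, against 0.278% of all loci (45 members had an unadjusted p under 0.05, in either direction). The members' RNA difference was thus visible in their sum and hardly at single loci, where the culture libraries held at most 1 hit.

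The members with the most hits were long (CATTC)n stretches on chromosomes 2, 10 and 16. The (CATTC)n at chr2:89852304-89854344 (2041 bp, 2193 bp from HSATII) had 0, 37 and 0 RNA hits before, in and after the xenograft, or 34.3 RPM in the tumour. With 3 hits in place of 0, its RNA in the tumour was 1.80-fold above the culture before (lower 95% limit 1.39). It was 2.75-fold above the culture after, whose ratio to the xenograft had an upper 95% limit of 0.471. Its DNA was at 1.38, 51.1 and 51.0 RPM over the 3 stages, 37.1-fold above the culture before in the xenograft (16.7 to 103) and at 0.998 of the xenograft in the culture after (0.797 to 1.25). In the same block, the (CATTC)n at chr2:89850111-89851747 (1637 bp) touches its HSATII row and had 0, 26 and 0 RNA hits, and 0.689, 51.1 and 42.2 DNA RPM. The xenograft was 74.1-fold above the culture before there (24.9 to 363). With 3 hits in place of 0, its RNA was 1.26-fold above the culture before, but the lower 95% limit of 0.957 did not exclude equal levels. DNA of both loci was high in the tumour and in the culture after, and both are named for their high xenograft values.

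On chromosome 16 the (CATTC)n at chr16:33887542-33887959 (418 bp, 1 bp from an HSATII row of 178 bp) had 0, 30 and 0 RNA hits, or 27.8 RPM in the tumour, and 0.230, 28.2 and 24.02 DNA RPM. It held 30 of the 69 xenograft RNA hits of the 18 members on that chromosome. On chromosome 10 the (CATTC)n at chr10:42360898-42362181 (1284 bp) had 21 RNA hits in the xenograft and none in the cultures, and 1.61, 31.3 and 22.1 DNA RPM. Its DNA in the culture after was at a ratio of 0.706 to the xenograft (0.511 to 0.970). This locus was named in part for its low value in that comparison and its high xenograft DNA. The interval does not allow for that choice and thus does not show a difference. The count test with adjustment called 0 of 1638 members lower in the culture after than in the xenograft. The (CATTC)n at chr10:42370094-42371903 (1810 bp) had 15 RNA hits in the xenograft and 1.61, 35.0 and 28.9 DNA RPM.

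Among (GAATG)n members, the most RNA hits were 17 each, at chr10:39151547-39152752 (1206 bp, 51793 bp from HSATII) and chr21:10809020-10809969 (950 bp, 1579 bp from an HSATII row of 39 bp). Their DNA was at 0.689, 13.9 and 14.3 RPM and at 0.230, 9.59 and 8.44 RPM over the stages. The (GAATG)n with the most DNA, chrY:13845484-13846764, had 1.15, 22.3 and 16.9 DNA RPM and only 6 RNA hits in the xenograft. The top RNA locus of each remaining chromosome or contig held between 3 hits (chr7:57549815-57550124) and 16 hits (chr20:29820348-29822268) in the xenograft and 0 in both cultures.

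The annotated families differed in level and slightly in the size of the DNA difference. Per kb of repeat, (CATTC)n members were at 7.35 RPM in xenograft RNA and (GAATG)n members at 5.16, a ratio of 1.42 (1.33 to 1.53). In DNA the ratio of (CATTC)n over (GAATG)n per kb was 2.01 before xenografting (1.72 to 2.34), 1.503 in the xenograft (1.46 to 1.55) and 1.52 after it (1.47 to 1.58). The DNA difference of xenograft over culture before was 37.2-fold for (GAATG)n (33.5 to 41.4) and 27.9-fold for (CATTC)n (24.9 to 31.3), and the (GAATG)n ratio over the (CATTC)n ratio was 1.33 (1.14 to 1.56). After against xenograft, DNA stood at 0.857 for (GAATG)n (0.833 to 0.883) and 0.869 for (CATTC)n (0.838 to 0.901). In RNA, with 2 hits of (CATTC)n and 3 of (GAATG)n before xenografting, the ratios of 93.4 (25.8 to 772) and 101 (34.4 to 489) were too loose to compare. The families also sit on different chromosomes, since chromosomes Y, 17, 20 and 21 held (GAATG)n only and Un_gl000216 (CATTC)n only. Of the 3 chromosomes with 8 or more loci of each family, chromosome 10 had a ratio of (CATTC)n over (GAATG)n per kb in xenograft RNA of 1.66 (1.48 to 1.87), chromosome 16 of 2.48 (1.40 to 4.65, from 53 and 16 hits) and chromosome 2 of 0.836 (0.620 to 1.14), where no difference was detectable. In xenograft DNA chromosome 10 was at 1.91 (1.81 to 2.01), chromosome 16 at 2.01 (1.54 to 2.64) and chromosome 2 at 0.650 (0.579 to 0.731), where (GAATG)n was higher. On chromosome 16 a single locus held 30 of the 53 (CATTC)n RNA hits and 91 of the 209 DNA hits. On chromosome 10 family went partly with block. Its block of 115 members was all (GAATG)n, at 4.46 RPM per kb in RNA and 6.27 in DNA. Its block of 81 was all (CATTC)n, at 10.4 and 19.1. Its block of 201 held 100 (CATTC)n and 101 (GAATG)n. The DNA ratio of xenograft over culture before was 37.9 for (GAATG)n (30.6 to 47.6) and 29.6 for (CATTC)n (25.1 to 35.1) on chromosome 10. On chromosome 2 it was 16.02 for (GAATG)n (11.3 to 23.5) and 25.2 for (CATTC)n (19.2 to 33.6), the other way round. Within each of these chromosomes the interval of the (GAATG)n ratio over the (CATTC)n ratio included 1: chromosome 10 gave 1.28 (0.971 to 1.70), chromosome 2 gave 0.636 (0.401 to 1.02) and chromosome 16 gave 0.188 (0.00315 to 3.66), the last with 2 and 1 hits before xenografting. The family difference in this DNA ratio was thus not shown within a chromosome.

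Every chromosome with members had hits counted at them in xenograft RNA and DNA. Here and below, a chromosome names where a hit was counted. Members share sequence, so the read need not have come from there. Per kb, xenograft RNA lay between 4.68 RPM on chromosome Y and 8.96 RPM on chromosome 17, apart from chromosome 16 at 19.2 RPM (69 hits over 3326 bp, 15.0 to 24.4). In DNA, chromosomes Y, 20, 21 and Un_gl000216 lay between 7.67 and 8.36 RPM per kb, chromosome 10 was at 12.0, chromosomes 2, 7 and 17 at 16.1 to 16.7, and chromosome 16 at 26.7. RNA over DNA in the xenograft ran from 0.398 on chromosome 7 (0.225 to 0.663) to 0.721 on chromosome 16 (0.546 to 0.940), with intervals that overlapped. The chromosome with the most members, Y, held 36.7% of them but 25.6% of their xenograft RNA hits and 25.4% of their DNA hits, while chromosome 10 held 23.7% of them with 33.8% and 34.0% of the hits.

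**Figure D2:**
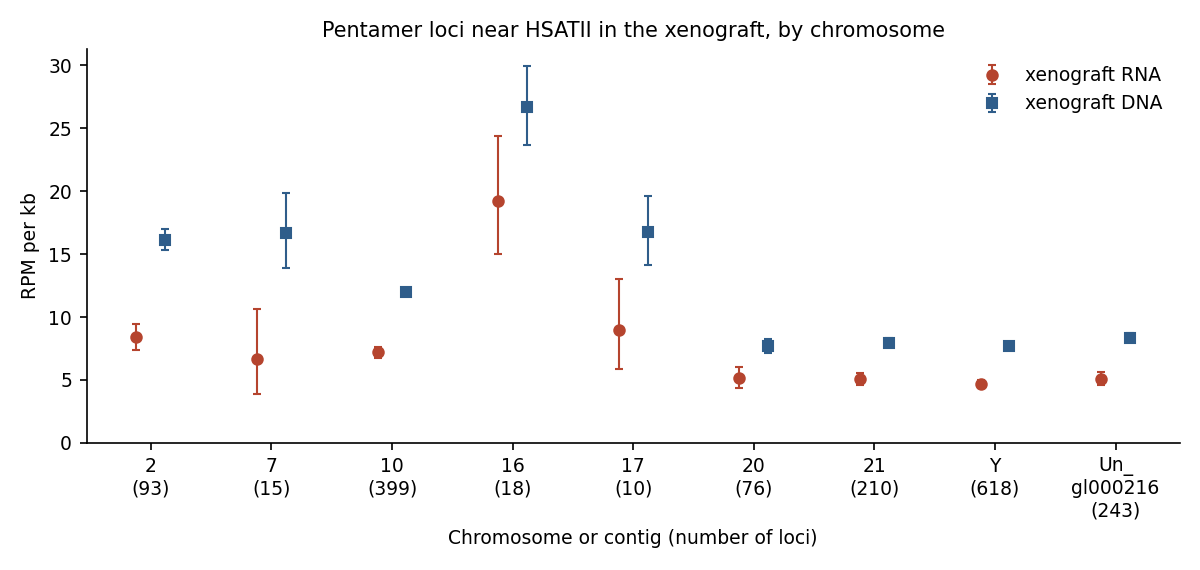
RPM per kb of repeat in xenograft RNA and xenograft DNA of the pentamer loci near HSATII, by chromosome or contig, with the number of loci in brackets and 95% exact Poisson intervals. DNA stood above RNA on each of the 9, and chromosome 16 was highest in both, at 19.2 RPM per kb in RNA and 26.7 in DNA.

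RNA hits of the culture libraries were too few to split by chromosome. On chromosome 10 there were 1133 RNA hits in the xenograft, against 0 before it, which is 55.1-fold higher with 3 hits in place of 0 (lower 95% limit 44.8). On chromosome Y there were 856 in the xenograft and 3 before (41.6-fold, 14.2 to 202). In the culture after, chromosome 10 had 1 hit and chromosome Y had 1.

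DNA of xenograft over culture before was 21.7-fold or more on all 9 and differed among them. It was 21.7-fold on chromosome 2 (17.5 to 27.2), 24.8-fold on Un_gl000216 (20.5 to 30.3), 32.6-fold on chromosome 10 (28.6 to 37.3) and 45.3-fold on chromosome Y (38.0 to 54.6). Set against the ratio of all other members, chromosome Y was at 1.51 (1.24 to 1.85), chromosome 2 at 0.628 (0.499 to 0.798) and Un_gl000216 at 0.720 (0.584 to 0.893). The highest value, 129-fold on chromosome 16, rested on 3 hits before xenografting (43.7 to 629). Chromosomes 20 and 21 were at 31.5-fold and 34.3-fold.

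In the culture after, DNA was lowest relative to the xenograft on chromosome 7 among the 9. Its 15 members held 53 hits in the culture after and 128 in the xenograft, a ratio of 0.434 (0.309 to 0.603), which over that of the other members was 0.502 (0.357 to 0.697). Chromosome 7 was singled out after its values were seen. Of its 15 loci, 12 lie between chr7:57545693 and 57555350, where the ratio was 0.429 (0.296 to 0.612). The HSATII rows within 100 kb of them held 234 DNA hits in the culture after and 223 in the xenograft, and 2 further members of the chromosome, next to another HSATII array, had 7 and 17. Chromosome 16 was at 0.724 (0.601 to 0.870) and the other 7 lay between 0.785 and 0.920.

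**Figure D3:**
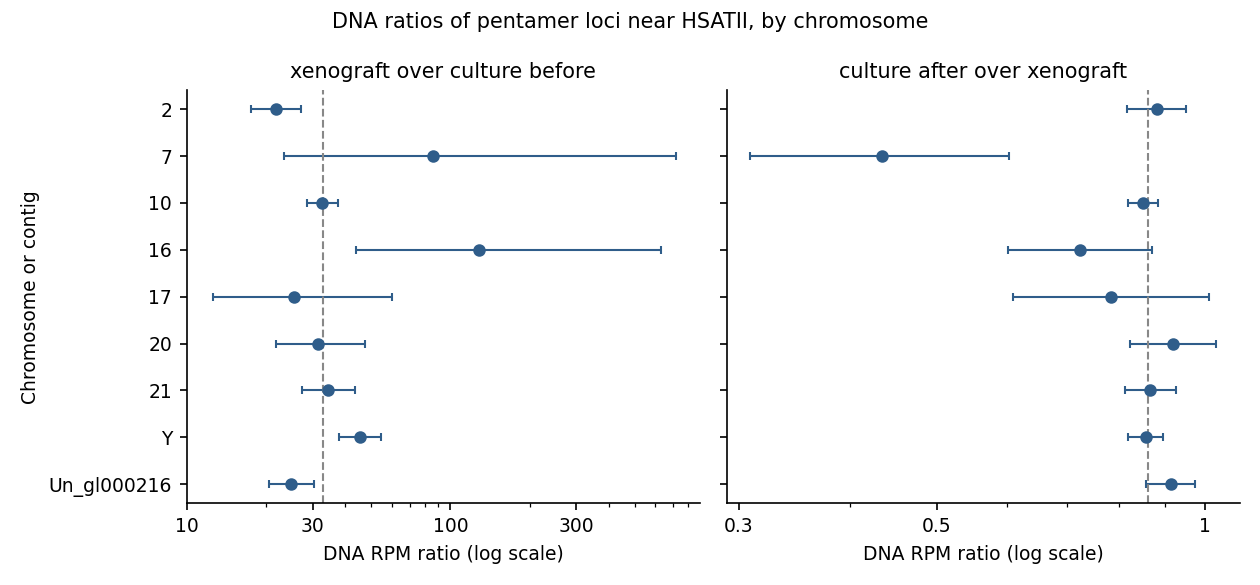
DNA RPM ratios (log axes) of the pentamer loci near HSATII by chromosome or contig, xenograft over culture before on the left and culture after over xenograft on the right, with 95% exact intervals for counting error. Dashed lines mark the ratio over all members, 32.9 on the left and 0.862 on the right. Chromosome 7 is the lowest of the 9 on the right, at 0.434 (0.309 to 0.603), and its interval just meets that of chromosome 16 (0.601 to 0.870).

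Members in contact with HSATII had more hits per kb as a class, and the other distance classes were alike. In RNA this was not seen on chromosomes 7 and 16, where a single locus weighed heavily on the members not in contact. Xenograft RNA per kb was 8.90 RPM for the 31 members touching an HSATII row (72 hits), and 5.86, 6.13 and 5.51 RPM for those up to 1000 bp away, beyond that up to 10000 bp, and beyond that up to 100000 bp. Xenograft DNA per kb was 18.6, 9.73, 9.73 and 9.36 RPM in the same order. Over the 1682 members, the Spearman correlation of level per kb with distance was 0.0042 in RNA and 0.00083 in DNA, as a description across loci of 1 library that share reads. The touching members had the largest DNA ratio of xenograft over culture before, at 101 (46.2 to 278, 6 hits before), and this was 3.14 times the ratio of the other members (1.42 to 8.63). A single locus, on chromosome 2, held 165 of their 451 xenograft DNA hits and 26 of their 72 RNA hits. Without it the DNA ratio was 129 (43.5 to 627, 3 hits before), and the other 30 touching loci were at 7.27 RPM per kb in xenograft RNA (5.32 to 9.70) and 15.1 in DNA (13.4 to 16.9), against 5.78 (5.58 to 5.98) and 9.53 (9.39 to 9.68) for the 1651 members not in contact. Of the 31 touching loci 7 lay on chromosome 7 and 6 on chromosome 16, where xenograft DNA was at 23.7 RPM per kb in the touching loci (19.999 to 27.8) and at 22.0 in the 20 others (19.4 to 24.8). Xenograft RNA on these chromosomes was at 9.17 in the touching loci (5.52 to 14.3) and at 16.5 in the 20 others (12.8 to 20.9), and these intervals overlapped. A single locus 1 bp from HSATII, chr16:33887542-33887959, held 30 of the 67 RNA hits of the 20 others and 91 of their 268 DNA hits. It was not left out, so these chromosomes do not settle whether touching loci differed. Without these chromosomes and the chromosome 2 locus, 17 touching loci were at 6.35 RPM per kb in RNA (4.18 to 9.24) and 10.9 in DNA (9.16 to 12.9), and both intervals include the level of all members not in contact. These splits were chosen after the values were seen. In the culture after, touching members stood at 0.728 of the xenograft (0.628 to 0.843), lower than the rest by a ratio of 0.841 (0.724 to 0.975).

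**Figure D4:**
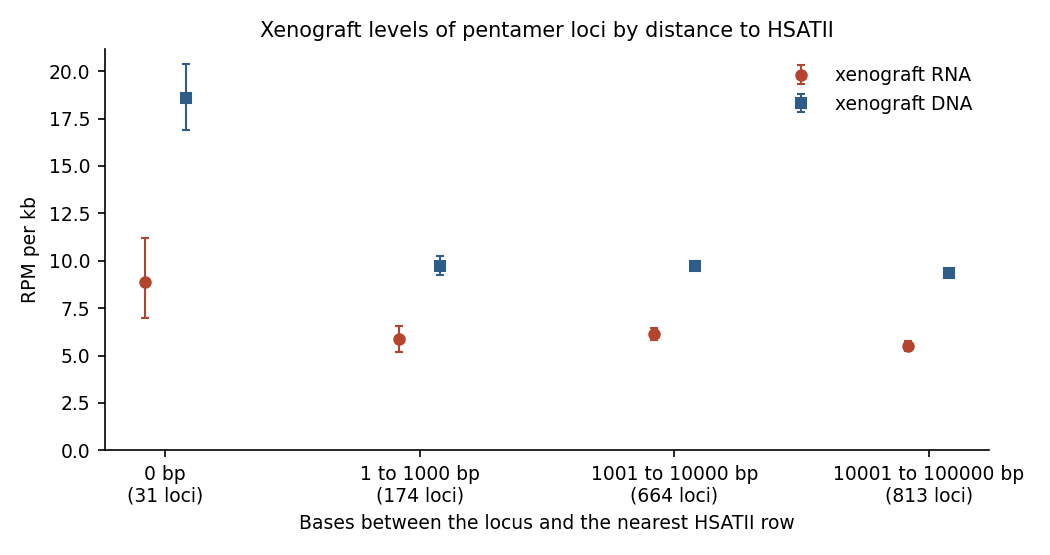
RPM per kb of repeat in xenograft RNA and xenograft DNA by the number of bases between a pentamer locus and its nearest HSATII row, with 95% exact Poisson intervals. The 31 touching loci were at 8.90 in RNA and 18.6 in DNA, and the other 3 classes lay between 5.51 and 6.13 in RNA and between 9.36 and 9.73 in DNA.

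Members and the HSATII beside them were at similar levels in some blocks and far apart in others. In 6 blocks both kinds of repeat covered 1000 bp or more. Around chr10:42354938-42383223 the 81 members were at 10.4 RPM per kb in xenograft RNA and 19.1 in DNA, and the HSATII rows among them at 141 and 238. Members over HSATII per kb was 0.0742 in RNA there (0.0655 to 0.0838) and 0.0804 in DNA (0.0762 to 0.0847). Around chr16:33866541-33899997 the order was the other way round, with 19.99 RPM per kb of RNA in 16 members and 7.56 in HSATII, a ratio of 2.64 (1.98 to 3.49), and a DNA ratio of 2.40 (2.09 to 2.74). On chromosome 2 the ratio was 0.517 in RNA (0.436 to 0.613) and 0.587 in DNA (0.546 to 0.631). In the Y block of 557 members it was 0.840 (0.555 to 1.33) and 1.12 (0.912 to 1.40), and in the block of 12 on chromosome 7 it was 0.709 (0.377 to 1.27) and 1.09 (0.862 to 1.38), so no difference could be seen in either. In the block of 115 members on chromosome 10, RNA was at 0.652 (0.511 to 0.838) and DNA at 0.416 (0.376 to 0.461).

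**Figure D5:**
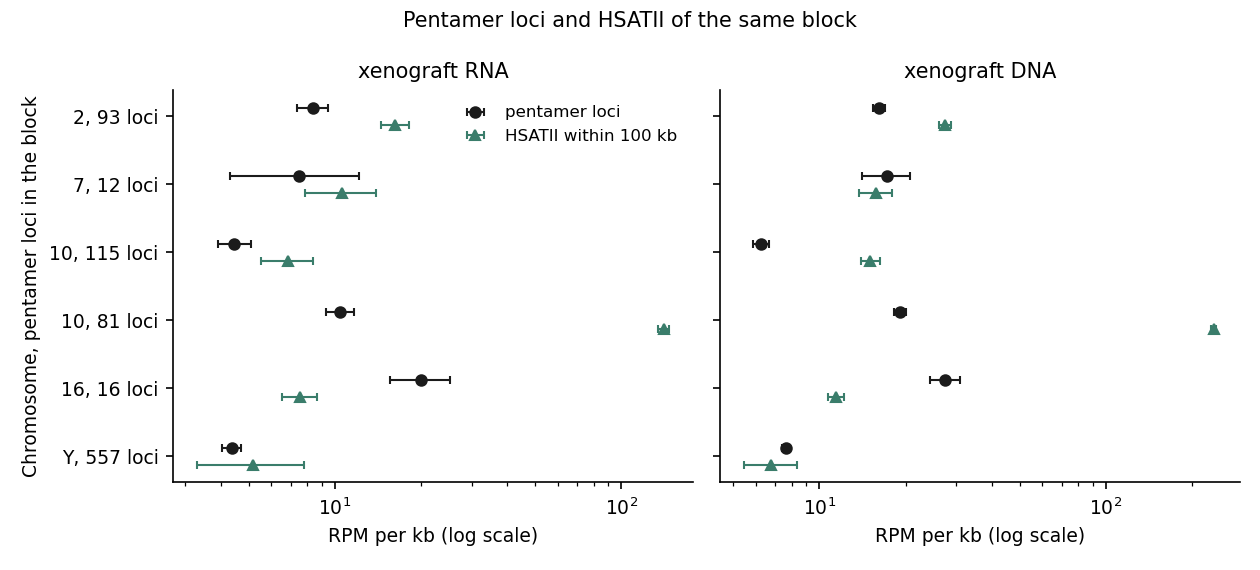
RPM per kb of repeat (log axes) in xenograft RNA (left) and xenograft DNA (right) of the pentamer loci in a block and of the HSATII rows within 100 kb of it, for the 6 blocks where each covers 1000 bp or more, with 95% exact Poisson intervals. Members ranged from 4.36 to 19.99 in RNA, HSATII from 5.19 to 141, and the order of the markers changes between blocks.

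In 7 further blocks, which hold all members of chromosomes 17, 20 and 21 and of Un_gl000216 and part of those of 7, 10 and Y, the HSATII rows together covered 1161 bp with 5 hits in xenograft RNA and 15 in DNA. That is 3.995 RPM per kb in RNA (1.30 to 9.32) and 3.999 in DNA (2.24 to 6.59), too little sequence to compare in RNA. An HSATII row of 375 bp on chromosome 7, beside 1 member, held 4 of these RNA hits and 12 of the DNA hits. The sums thus mostly describe that row and do not stand for the other blocks. Members whose nearest HSATII row had no hit in any library (577, 34.3%) were at 4.70 RPM per kb in xenograft RNA and 7.01 in DNA, against 6.40 and 11.0 for the other 1105. They include all members of chromosomes 20 and 21, where HSATII covered 75 and 113 bp. There 3 hits would be worth 37.1 and 24.6 RPM per kb in xenograft RNA, and 12.4 and 8.22 in DNA. A count of 0 in these rows thus does not show a level below that of the members. The DNA ratio of xenograft over culture before in the 577 members was 35.6 (30.3 to 42.1), and over that of the other members it was 1.11 (0.923 to 1.34).

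Against pentamer loci farther from HSATII, the members differed by less than 1.5-fold in DNA and in xenograft RNA, and were lower in RNA of the culture after. Members made up 66.8% of the pentamer sequence and took 70.0% of the pentamer hits in xenograft RNA (Wilson interval 68.7 to 71.3%) and 68.3% in xenograft DNA (67.7 to 68.85%). Per kb they were 1.16-fold above other pentamer loci in xenograft RNA (1.09 to 1.23) and 1.07-fold in xenograft DNA (1.04 to 1.10), but at 0.854 of them in DNA before xenografting (0.754 to 0.969). The DNA ratio of xenograft over culture before was 1.25 times that of other pentamer loci (1.10 to 1.42), and of culture after over culture before 1.29 times (1.13 to 1.47). For DNA of culture after over xenograft the factor was 1.03 (0.990 to 1.07). In RNA the factor was 0.934 for xenograft over culture before (0.0888 to 5.71), 0.199 for culture after over culture before (0.0153 to 1.58), and 0.200 for culture after over xenograft (0.0688 to 0.522). The last rested on 7 hits in members and 15 in other pentamer loci in the culture after, a share of 31.8% for the members (16.4 to 52.7%), and per kb the members were at 0.232 of the others there (0.0799 to 0.604).

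Against HSATII, members were low per kb in sums over all loci, but not on every chromosome. Their DNA was lower in the culture after than in the xenograft, and HSATII DNA was not. Per kb the members were at 0.239 of HSATII in xenograft RNA (0.230 to 0.249) and 0.210 in xenograft DNA (0.206 to 0.214). Chromosomes 10 and 16 held 14920 and 20293 of the 42219 HSATII hits in xenograft DNA. There HSATII was at 121 and 56.2 RPM per kb in DNA, against 12.0 and 26.7 in members. In RNA it was at 70.2 and 26.9, against 7.19 and 19.2. On chromosomes 2, 7 and Y HSATII DNA was at 18.7, 13.0 and 6.43, against 16.1, 16.7 and 7.73 in members. HSATII RNA there was at 10.2, 7.67 and 4.93, against 8.38, 6.65 and 4.68. DNA of culture after over xenograft was 0.862 for the members and 1.01 for HSATII (0.992 to 1.02), and the members' ratio over that of HSATII was 0.857 (0.834 to 0.880). DNA of xenograft over culture before was 1.30 times that of HSATII (1.19 to 1.42), but without chromosome 10 in both sets it was 0.833 (0.741 to 0.936). For culture after over culture before the factor was 1.12 (1.02 to 1.22), and without chromosome 10 it was 0.715 (0.637 to 0.804). In RNA the factor was 0.270 for xenograft over culture before (0.0419 to 1.39) and 3.84 for culture after over culture before (0.227 to 251). It was 15.6 for culture after over xenograft (2.00 to 701), where HSATII held a single hit.

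Between loci, xenograft hits in RNA went with those in DNA at a Spearman correlation of 0.69 over the 1682 members, and at 0.49 per kb. Xenograft DNA hits went with DNA hits in the culture after at 0.84, and at 0.69 per kb. Length, shared by all these counts, correlated with RNA hits at 0.55 and with DNA hits at 0.67. The loci are not independent, since they share reads and libraries. In the xenograft 32 members had RNA and no DNA hit, and 460 had DNA and no RNA hit.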

How the data were processed

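The authors deposited RPM (reads per 1000000) for each satellite locus in 6 libraries, on hg19 per the submitters' processing notes. Not given in the sources used here were the aligner, the counting of multiple matches, the strand rule, the treatment of mouse reads and the reads behind each total. In each library 100% of nonzero RPM values were whole multiples of the smallest within 0.01, which gave hits and totals (157326 to 4355426 reads). Ratios carry Clopper-Pearson intervals, levels exact Poisson intervals, and ratios of 2 ratios conditional exact intervals. Distances count the bases between edges. Members and lists were chosen with earlier results of these data known. Named loci are the highest and lowest 3 per comparison among those with 20 RPM, the top 6 in xenograft RNA and in DNA, each chromosome's top RNA locus and those at the limit. Alternatives used TMM (edgeR 4.0.16) and size factors (DESeq2 1.42.0) on recovered counts. Tests were tried on simulated data. Software was Python 3.11.15 with SciPy 1.17.1, pandas 2.3.3, NumPy 2.4.6 and matplotlib 3.10.9, and R 4.3.3.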

Additional observations from a re-analysis of the deposited data

How the results depend on the processing

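No paired analysis was possible because each group is 1 library. Of 120 alternatives, 89 left a value inside its interval or a count within 1.5-fold. Changing the scale moved the DNA sums most. For xenograft over culture before the DNA ratio of the members was 3.86 with TMM, 7.16 with size factors, 36.2 with totals without satellite hits, 35.8 for members within 10 kb and 29.7 with loci of the same values counted once. For culture after over culture before it was 3.45, 6.31, 31.4, 30.8 and 25.5 under the same settings. For culture after over xenograft it was 0.894 with TMM and 0.882 with size factors. The ratio over that of HSATII turned round without chromosome 10, to 0.833 for xenograft over culture before and 0.715 for culture after over culture before, and was 1.18 and 1.01 with loci of the same values counted once.

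Counts of single members depended on the minimum. With a minimum of 10 RPM, 33 of 34 members passed 2-fold higher in RNA for xenograft over culture before (81.5% of all satellite loci tested so) and 33 of 34 lower for culture after over xenograft (69.3%). In DNA 81 of 81 were higher for xenograft over culture before (89.0%) and 61 of 61 for culture after over culture before (90.0%). These members too passed the minimum through the xenograft or the culture after alone, so their direction was set by that choice. With no minimum the counts in the same order were 153 of 1145 (13.4%, against 22.7% of all loci), 152 of 1145 (13.3%, against 20.4%), 274 of 1582 (17.3%, against 18.96%) and 232 of 1555 (14.9%, against 19.4%). In RNA of culture after over culture before, 5 of 12 were lower, against 28.6% of all loci. This count was fixed by depth and is no result about the members. Each of the 12 held a single hit, and on the log2(RPM + 5) scale only a hit before xenografting was worth enough to pass 2-fold. TMM gave 3 and 2 in the DNA comparisons with the culture before. The count test gave 0 and 1 in RNA and 931 and 815 in DNA, where the 0 was fixed by the depth of the culture before. The RNA depth of the cultures, where 1 hit is worth 6.36 and 4.17 RPM, limited every statement on single loci. The causes were not tested.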
